A study of Mus musculus with 6 samples.

Results

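The growth hormone and IGF axis was followed in the mouse tibial growth plate through 10 genes: Ghr, Stat5b, Socs2, Igf1, Igfbp3, Igfbp4, Igfbp5, Igf1r, Igf2r and Irs1. They were taken by name out of the 20145 named genes of the array, as a set chosen with earlier results of these data known. Every non-control probe whose RefSeq accession belonged to one of the 10 symbols was used, which gave 18 probes on 40 spots of each array. Of these probes, 16 from 9 genes were tested: in 1 or more of the genotypes, both of its arrays gave them a signal well above background.

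Growth plates were cut from the tibiae of untreated C57BL/6J males of 4 weeks by laser microdissection. The genotypes were ATF6aKO and ATF6bKO, labelled as knockouts of 2 related transcription factors of the endoplasmic reticulum membrane, and wild type (WT). Each genotype had 2 arrays, made from 150 ng of RNA that was amplified across the whole transcriptome and labelled with Cy5. How the alleles were made, whether the loss is limited to a cell type and whether separate animals gave the 2 arrays of each genotype are not given in the sources used here. All p-values thus rest on the spread between these arrays alone, and that spread may be technical.

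Growth hormone binds its receptor GHR, the kinase JAK2 then phosphorylates STAT5B, and STAT5B drives transcription of Igf1 and of Socs2, whose product damps the receptor. IGF1 is secreted by the liver and also made within bone, is held by IGF binding proteins, and acts on its receptor IGF1R, which signals through the adaptor IRS1 to PI3K and AKT. In the growth plate this axis promotes the lengthening of long bones: mice without Ghr or Igf1 stay small, and mice without Socs2 overgrow.

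The promoter sequences of Igf1, Irs1 and Igf2r are shown. A probe of each differed between both knockouts and WT, downwards for Igf1 and upwards for Irs1 and Igf2r. Igfbp4 was also lower in both knockouts, and its window, not shown, held none of the motifs named below. Each window holds the 250 bases before an annotated transcription start in RefSeq on GRCm38.p6, read 5′ to 3′ on the gene's strand. Capitals mark letters on either strand: the CCAAT box, the motif CCACG of ATF6 elements and the E-box, CACGTG. The box and the motif are also the ends of the endoplasmic reticulum stress response element, so a full element would hold both. The Igf1 window is chr10:87860861-87861110 on the plus strand, the Irs1 window chr1:82291440-82291689 on the minus strand and the Igf2r window chr17:12769707-12769956 on the minus strand.
Igf1: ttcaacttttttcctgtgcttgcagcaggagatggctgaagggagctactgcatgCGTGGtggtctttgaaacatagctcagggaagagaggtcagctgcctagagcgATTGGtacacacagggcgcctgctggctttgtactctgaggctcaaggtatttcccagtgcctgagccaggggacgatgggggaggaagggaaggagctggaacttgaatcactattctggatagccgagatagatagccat
Irs1: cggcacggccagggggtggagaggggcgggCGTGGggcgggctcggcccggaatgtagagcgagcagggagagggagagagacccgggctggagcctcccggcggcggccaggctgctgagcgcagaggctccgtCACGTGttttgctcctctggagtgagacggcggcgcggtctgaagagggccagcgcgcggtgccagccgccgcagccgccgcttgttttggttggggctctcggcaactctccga
Igf2r: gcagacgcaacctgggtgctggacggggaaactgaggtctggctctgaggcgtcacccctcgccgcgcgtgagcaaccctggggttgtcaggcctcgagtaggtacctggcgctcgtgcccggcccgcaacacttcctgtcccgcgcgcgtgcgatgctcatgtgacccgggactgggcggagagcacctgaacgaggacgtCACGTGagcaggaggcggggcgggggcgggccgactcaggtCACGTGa

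The Igf1 window was 52.8% G and C with 5 CpG dinucleotides, close to the median of 52.4% and 6 over all 32851 windows of the table. The Irs1 window, at 72.4% and 28 CpG dinucleotides, and the Igf2r window, at 69.2% and 27, lay above that median. The E-box letters CACGTG began 115 bases before the start in Irs1, and 48 and 7 bases before it in Igf2r. Among the 11 windows of 9 axis genes (all but Socs2) these were the 2 with an E-box, against 6.02% of all windows. The windows of the table were not matched to the axis windows for G and C, where the axis median was 69.2%. The STAT motif TTCNNNGAA was in 0 of the 11 windows and in 7.02% of all. The full stress response element was in 0 of the 11 and in 0.113% of all, and the unfolded protein response motif TGACGTGG in 0 of the 11 and in 0.563% of all. CCAAT was in 3 of the 11 windows against 33.8% of all, and CCACG in 4 of the 11 against 28.3%. These are matches of letters on both strands within 250 bases, and nothing here measured whether a factor binds there.

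Against WT, the probe of highest signal for Igf1 was lower and those for Irs1, Igf2r and Socs2 were higher in both knockouts, and Igfbp4 was lower in both. Another Socs2 probe was lower in both. In ATF6aKO minus WT, 10 of the 16 axis probes passed a limma adjusted p of 0.05, of which 6 rose and 4 fell. The 6 include Stat5b A_55_P2031045, which was kept for testing through ATF6aKO alone. Over all 24907 named probes the share that passed was 41.9%. In ATF6bKO minus WT, 8 of 16 passed, 4 in each direction, against 36.5% of all probes. The arrays of knockout and WT did not overlap in 13 of 16 axis probes for ATF6aKO, against 72.9% of all probes, and in 15 of 16 for ATF6bKO, against 72.5%. The median difference over the 16 axis probes was 0.12 and -0.08 log2 units, and that over all probes -0.02 and -0.05. Scaling to the 75th percentile in place of quantiles moved the median over all probes to 0.16 and 0.18, and the share of higher among called probes from 47.9% to 60.6% in ATF6aKO and from 45.4% to 62.7% in ATF6bKO. These comparisons share the WT arrays, so they are not independent of each other. The number of axis probes that passed fell most without ATF6aKO replicate 2 in ATF6aKO minus WT. In ATF6bKO minus WT it fell most without either ATF6bKO array or without WT replicate 2. In each of these fits fewer of all named probes passed too, and whether the axis lost more than its share was not tested.

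**Figure D1:**
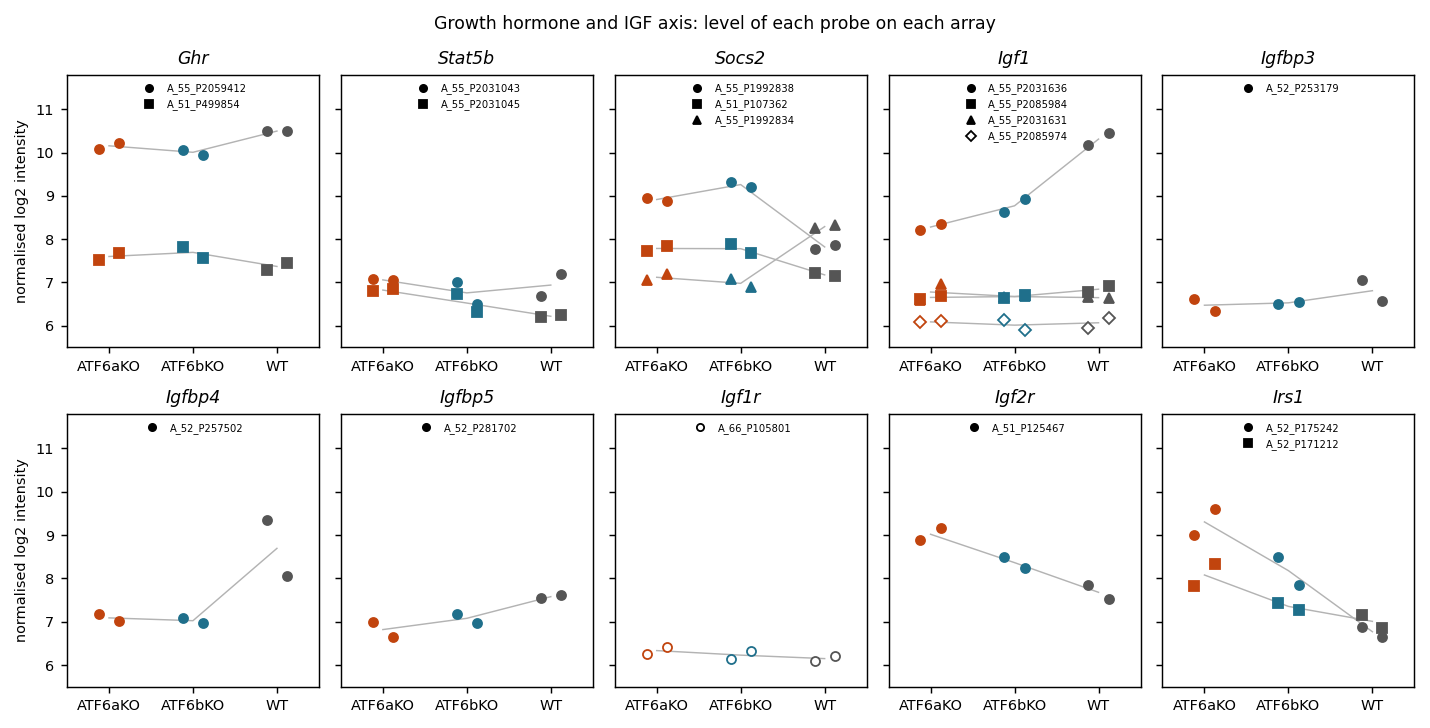
Normalised log2 intensity (vertical axis) of each probe of the 10 axis genes on the 6 arrays by genotype, with a line through the genotype means; open symbols are the 2 probes not kept for testing. The Igf1 probe A_55_P2031636 lies at 8.20 to 8.92 on the knockout arrays and at 10.18 and 10.44 in WT, while the Irs1 probe A_52_P175242 runs the other way.

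The 4 knockout arrays lay on 1 slide and were read in the red channel, and the WT arrays lay on another slide and were read in 1 channel, so for every knockout against WT difference the genotype, the slide and the channel cannot be told apart. Non-control probes, named or not and dim or not, correlated at r = 0.9704 to 0.9881 between the 4 knockout arrays. The correlation was 0.9600 between the WT arrays and 0.8508 to 0.9057 across the slides. Median spot intensity was 146 to 183 on the knockout arrays, and 259.5 and 210 on the WT arrays. No axis spot was saturated. The probe of Atf6 read 7.07 and 6.97 in ATF6aKO against 7.05 and 7.28 in WT (difference -0.15 ± 0.17, SE, limma adjusted p = 0.50), and that of Atf6b read 8.77 and 8.41 in ATF6bKO against 9.06 and 9.19 (-0.54 ± 0.21, adjusted p = 0.0834). Where these probes lie against the deleted parts is not given in the sources used here, so they do not check the genotype labels.

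Ghr encodes the growth hormone receptor and, through an alternative transcript, a shorter growth hormone binding protein. It had a probe for each of 2 RefSeq transcripts. The probe for NM_001048178 read 10.09 and 10.22 in ATF6aKO, 10.06 and 9.95 in ATF6bKO, against 10.49 and 10.50 in WT on the normalised log2 scale. All 4 knockout arrays lay below both WT arrays, by a small amount. The difference was -0.34 ± 0.16 (SE, 2 arrays each) for ATF6aKO, which did not pass (limma adjusted p = 0.115), and -0.49 ± 0.16 for ATF6bKO, which did (1.40-fold lower, adjusted p = 0.0433). That call was lost when either ATF6bKO array or either WT array was left out (-0.43 to -0.54, adjusted p 0.100 to 0.198), and also with the replicate number as a block (adjusted p = 0.0682). The probe for NM_010284 read 7.52 and 7.68, 7.83 and 7.56, and 7.28 and 7.46 in the same order. Here the knockout arrays lay above the WT arrays, and neither difference passed (0.23 ± 0.18 and 0.33 ± 0.18, adjusted p = 0.321 and 0.180). The 2 receptor probes thus differed in sign after scaling, and the mean over both was -0.06 and -0.08. Before scaling, the probe for NM_010284 read 7.23 to 7.63 on the knockout arrays and 7.71 on each WT array. Its higher value in the knockouts is therefore one relative to the other probes of each array.

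Stat5b encodes the transcription factor that growth hormone activates. Its probe A_55_P2031043 read 7.07 and 7.05 in ATF6aKO, 7.01 and 6.51 in ATF6bKO, against 6.69 and 7.19 in WT. The WT arrays spanned most of the knockout values, and neither difference passed (0.12 ± 0.23 and -0.18 ± 0.23, limma adjusted p = 0.696 and 0.576), the second turning to 0.18 under 75th percentile scaling. The probe A_55_P2031045 read 6.80 and 6.85, 6.73 and 6.32, and 6.20 and 6.24, and was not well above background on ATF6bKO replicate 2 and WT replicate 2. It was kept for testing through ATF6aKO alone, the genotype where it read highest, so the filter favoured a rise there. Both ATF6aKO arrays lay above both WT arrays (0.61 ± 0.18, 1.52-fold, adjusted p = 0.0318), while ATF6bKO did not pass (0.30 ± 0.18, adjusted p = 0.228; under 75th percentile scaling 0.83, adjusted p = 0.0109). The ATF6aKO call was lost when either ATF6aKO array or either WT array was left out (0.59 to 0.63, adjusted p 0.0637 to 0.117).

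Socs2 encodes a suppressor of cytokine signalling that growth hormone induces and that limits the growth hormone receptor. Its 3 probes, all assigned to NM_007706, did not move together. The probe A_55_P1992838 read 8.94 and 8.89 in ATF6aKO, 9.31 and 9.21 in ATF6bKO, against 7.77 and 7.87 in WT. Every knockout array lay more than 1 log2 unit above the WT arrays, and the probe rose by 1.1 ± 0.15 in ATF6aKO (2.14-fold, limma adjusted p = 0.00189) and by 1.44 ± 0.15 in ATF6bKO (2.71-fold, adjusted p = 0.00108). The probe A_51_P107362, printed on 10 spots, read 7.72 and 7.85, 7.88 and 7.68, and 7.21 and 7.14, and rose by 0.61 ± 0.16 (adjusted p = 0.0206) and 0.60 ± 0.16 (adjusted p = 0.0243). The probe A_55_P1992834 read 7.05 and 7.19, 7.07 and 6.89, and 8.26 and 8.32, so that here both WT arrays lay above all knockout arrays. It fell by 1.17 ± 0.16 in ATF6aKO (2.25-fold lower, adjusted p = 0.00180) and by 1.30 ± 0.16 in ATF6bKO (2.47-fold lower, adjusted p = 0.00160). With the 3 probes averaged, Socs2 differed by 0.18 ± 0.15 and 0.25 ± 0.15 and passed in neither comparison (adjusted p = 0.352 and 0.229). No direction for Socs2 RNA as a whole can be read from these probes.

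The 10 spots of A_51_P107362 also show how far the scaling between arrays carries that probe. Before scaling, the spot means were 7.67 and 7.66 in ATF6aKO, 7.67 and 7.34 in ATF6bKO, against 7.64 and 7.36 in WT, with an SD between spots of 0.09 to 0.16. The genotypes overlapped, while the median of all probes was 7.36 to 7.66 on the knockout arrays and 8.20 and 7.98 on the WT arrays. The difference of this probe is therefore one relative to the other probes of each array. Its ATF6aKO call was lost without ATF6aKO replicate 2 (0.54, adjusted p = 0.0909) or WT replicate 2 (0.57, adjusted p = 0.0686). Its ATF6bKO call was lost without ATF6bKO replicate 1 (0.50, adjusted p = 0.159), ATF6bKO replicate 2 (0.70, adjusted p = 0.0671) or WT replicate 2 (0.56, adjusted p = 0.0762).

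**Figure D2:**
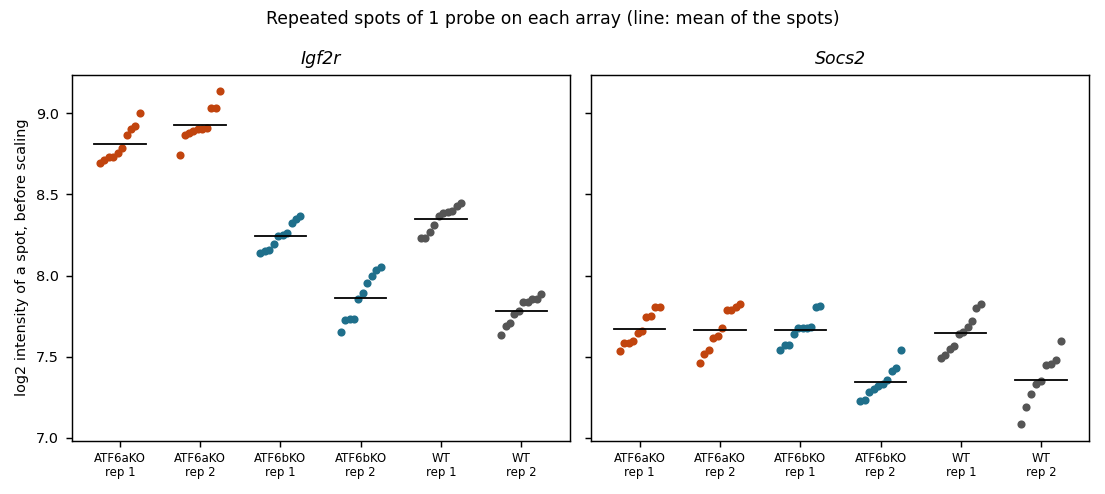
Log2 intensity of each of the repeated spots of the Igf2r probe and of the Socs2 probe A_51_P107362 on each array, after background correction and before scaling between arrays; the line is the mean of the spots. Within an array the spots of the Igf2r probe have an SD of 0.08 to 0.15, and the ATF6aKO means of 8.81 and 8.93 lie above all others, while the Socs2 means of the 3 genotypes overlap.

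Igf1 encodes the growth factor itself and had the largest fall among the axis probes in ATF6aKO. The probe A_55_P2031636, the mean of 2 spots, read 8.20 and 8.36 in ATF6aKO, 8.62 and 8.92 in ATF6bKO, against 10.18 and 10.44 in WT. The knockout arrays all lay at least 1 log2 unit below the WT arrays, and the ATF6aKO arrays lay below the ATF6bKO arrays. The probe fell by 2.02 ± 0.18 in ATF6aKO (4.07-fold lower, limma adjusted p = 0.000618) and by 1.54 ± 0.18 in ATF6bKO (2.90-fold lower, adjusted p = 0.00146). Before scaling, its values were 8.15 to 8.51 on the knockout arrays, and 10.84 and 10.83 in WT, so that the groups stood apart without any scaling.

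The other Igf1 probes, assigned to the same transcript NM_010512, did not share that fall. The probe A_55_P2085984 read 6.63 to 6.70 on the knockout arrays and 6.78 and 6.91 in WT, with differences of -0.19 ± 0.15 and -0.17 ± 0.15 (limma adjusted p = 0.348 and 0.428), whose sign turned under 75th percentile scaling (0.09 and 0.19). The probe A_55_P2031631 read 6.59 to 6.97 on the knockout arrays and 6.66 and 6.64 in WT, with differences of 0.13 ± 0.18 and 0.02 ± 0.18 (adjusted p = 0.580 and 0.930). Both read little above the lowest signal well above background, which was 5.67 to 6.22 on the 6 arrays. The probe A_55_P2085974 read 5.90 to 6.19, was well above background on none of the arrays and was not tested. With the 3 tested probes averaged, Igf1 differed by -0.69 ± 0.16 and -0.56 ± 0.16 (adjusted p = 0.0113 and 0.0283).

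The IGF binding proteins hold IGF1 in the circulation and in the matrix and set how much of it reaches the receptor. Igfbp4, whose product mostly restrains IGF action, read 7.17 and 7.01 in ATF6aKO, 7.08 and 6.97 in ATF6bKO, against 9.34 and 8.05 in WT. Both WT arrays lay above all knockout arrays but differed from each other by more than the knockout arrays did, with an SD of 0.91 in WT against 0.11 and 0.08. It fell by 1.60 ± 0.37 in ATF6aKO (3.04-fold lower, limma adjusted p = 0.0115) and by 1.67 ± 0.37 in ATF6bKO (3.18-fold lower, adjusted p = 0.0113). Without WT replicate 1 the differences were -0.96 and -1.02, and without WT replicate 2 they were -2.25 and -2.31. The calls were lost without ATF6aKO replicate 2 (-1.53, adjusted p = 0.0785) in the first comparison, and without ATF6bKO replicate 1 (-1.72, adjusted p = 0.0613) or replicate 2 (-1.61, adjusted p = 0.0641) in the second.

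Igfbp5, which encodes a binding protein found in bone matrix, read 7.0 and 6.64 in ATF6aKO, 7.19 and 6.97 in ATF6bKO, against 7.54 and 7.62 in WT. All knockout arrays lay below both WT arrays. It fell by 0.76 ± 0.19 in ATF6aKO (1.69-fold lower, limma adjusted p = 0.0147), a call that was lost without ATF6aKO replicate 2 (-0.58, adjusted p = 0.0806). In ATF6bKO the difference of -0.50 ± 0.19 did not pass (adjusted p = 0.0718). Igfbp3, the main carrier of IGF1 in blood, read 6.61 and 6.34, 6.5 and 6.56, and 7.05 and 6.57, and was not well above background on ATF6bKO replicate 2. WT replicate 1 stood above the rest, and neither difference passed (-0.34 ± 0.21 and -0.28 ± 0.21, adjusted p = 0.222 and 0.316), the second turning to 0.10 under 75th percentile scaling.

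Igf1r, the receptor through which IGF1 acts, had a single probe that read 6.09 to 6.42 on the 6 arrays. It was well above background only on ATF6aKO replicate 2 and WT replicate 1 and was not tested, so nothing can be said of the receptor's RNA at this signal. Igf2r encodes the receptor that takes IGF2 to the lysosome and also sorts lysosomal enzymes. Its probe, the mean of 10 spots, read 8.88 and 9.16 in ATF6aKO, 8.49 and 8.24 in ATF6bKO, against 7.84 and 7.52 in WT. The genotypes did not overlap, with ATF6aKO highest and WT lowest. Igf2r rose by 1.34 ± 0.20 in ATF6aKO (2.52-fold, limma adjusted p = 0.00220) and by 0.68 ± 0.20 in ATF6bKO (1.60-fold, adjusted p = 0.0302). Before scaling, the spot means were 8.81 and 8.93, 8.24 and 7.86, and 8.35 and 7.78, so ATF6aKO stood above the others while ATF6bKO and WT overlapped. The ATF6bKO call was lost without ATF6bKO replicate 1 (0.56, adjusted p = 0.181), ATF6bKO replicate 2 (0.81, adjusted p = 0.0709) or WT replicate 2 (0.52, adjusted p = 0.114), and with the scanner's processed signal (0.95, adjusted p = 0.0518).

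Irs1 encodes the adaptor that links the IGF1 and insulin receptors to PI3K, and had the largest rise among the axis probes in ATF6aKO. The probe A_52_P175242 read 9.01 and 9.60 in ATF6aKO, 8.5 and 7.86 in ATF6bKO, against 6.89 and 6.65 in WT. The genotypes did not overlap, in the same order as for Igf2r. It rose by 2.54 ± 0.28 in ATF6aKO (5.81-fold, limma adjusted p = 0.000880) and by 1.41 ± 0.28 in ATF6bKO (2.66-fold, adjusted p = 0.00738). The ATF6bKO call was lost without ATF6bKO replicate 1 (1.09, adjusted p = 0.0575). Before scaling, the values were 8.94 and 9.38, 8.26 and 7.51, and 7.24 and 6.81, again without overlap.

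The second Irs1 probe, A_52_P171212, read 7.82 and 8.34 in ATF6aKO, 7.44 and 7.27 in ATF6bKO, against 7.16 and 6.86 in WT. It kept the same order with smaller steps. It rose by 1.07 ± 0.22 in ATF6aKO (2.10-fold, limma adjusted p = 0.00771) and did not pass in ATF6bKO (0.34 ± 0.22, adjusted p = 0.256). Averaged over both probes, Irs1 differed by 1.80 ± 0.24 and 0.88 ± 0.24 (adjusted p = 0.00187 and 0.0262).

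**Figure D3:**
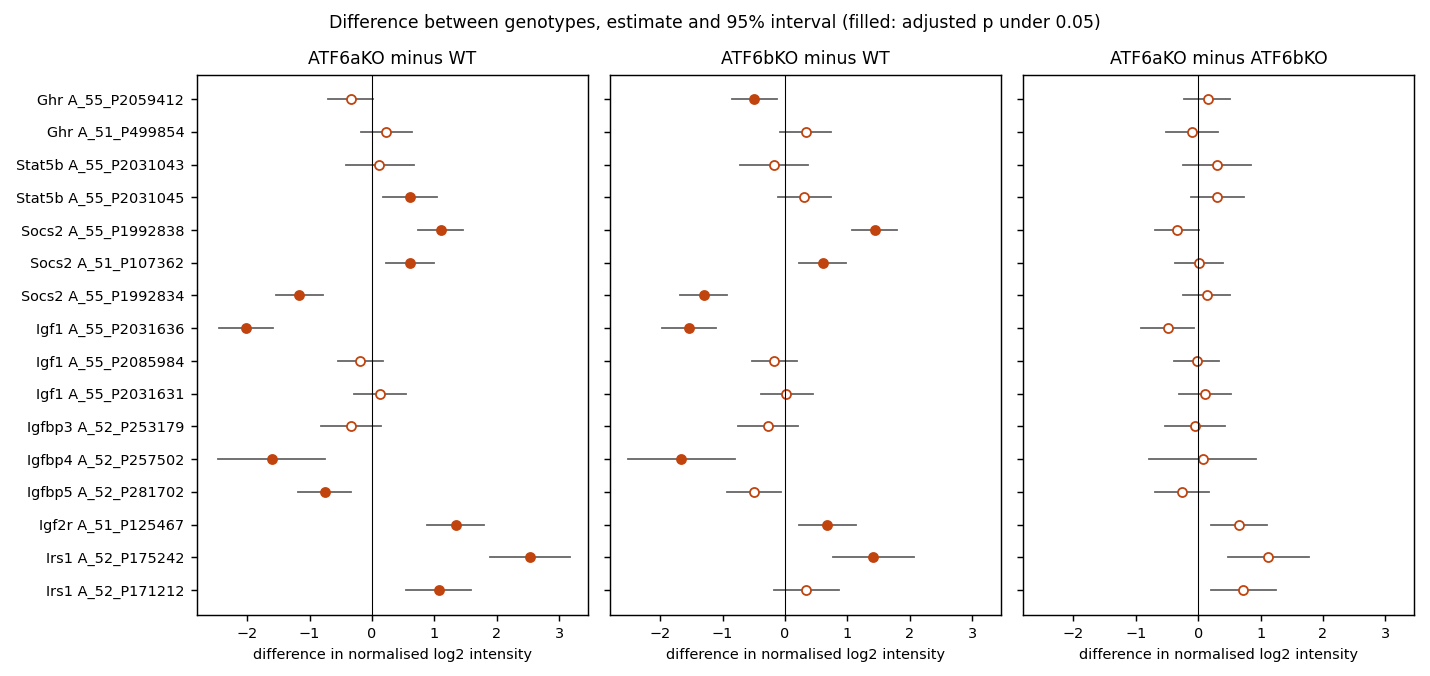
Differences in normalised log2 intensity (horizontal axis) with 95% intervals from the limma fit for the 16 tested axis probes in the 3 comparisons; filled points passed an adjusted p of 0.05. In both comparisons with WT the Igf1 probe A_55_P2031636 lies left of 0 and the Irs1 probe A_52_P175242 right of it, the 3 Socs2 probes lie on both sides, and no point is filled in ATF6aKO minus ATF6bKO.

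ATF6aKO and ATF6bKO shared a slide and a channel, which makes theirs the comparison free of that limit, although each genotype held its own row of the slide. No axis probe passed (limma, 0 of 16), and none of the 24907 named probes did (0%). At an unadjusted p of 0.05, 4 axis probes and 1605 of all probes passed. The arrays did not overlap in 8 of 16 axis probes, against 37.1% of all probes. Irs1 A_52_P175242 was 1.12 log2 units higher in ATF6aKO (95% interval 0.48 to 1.77, adjusted p = 0.582), and A_52_P171212 0.72 higher (0.21 to 1.24, adjusted p = 0.631). Igf2r was 0.65 higher (0.20 to 1.11, adjusted p = 0.628). Igf1 A_55_P2031636 differed by -0.49 (-0.92 to -0.06, adjusted p = 0.719), and Socs2 A_55_P1992838 by -0.34 (-0.70 to 0.02, adjusted p = 0.804). The other 11 probes differed by -0.26 to 0.30. These intervals leave room for differences of more than 2-fold for Irs1 and Igf2r, so the 2 knockouts were not shown to be alike.

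The other genes of the pathway were read from 3 lists, with 1 probe per gene. Among genes of growth hormone receptor signalling, 16 of 17 were tested, and 0 rose and 4 fell in ATF6aKO and 0 rose and 3 fell in ATF6bKO, which is 25% and 18.8% called. Over all probes, 20.1% rose and 21.8% fell in ATF6aKO, and 16.6% rose and 19.9% fell in ATF6bKO. Ptpn1, a phosphatase that acts on insulin receptor and JAK2, fell by 0.66 ± 0.18 in ATF6aKO (limma adjusted p = 0.0206). In ATF6bKO it was not well above background on either array, and the measured difference was -0.75 ± 0.18 (adjusted p = 0.0144), of uncertain size so near background. Sh2b1, an adaptor that binds JAK2, fell by 0.60 ± 0.16 (adjusted p = 0.0214) and 0.71 ± 0.16 (adjusted p = 0.0132). All 4 of these calls were lost when 1 array was left out: without ATF6aKO replicate 2 the ATF6aKO differences were -0.55 for Ptpn1 (adjusted p = 0.101) and -0.54 for Sh2b1 (0.0931), and without WT replicate 1 they were -0.61 (0.0546) and -0.55 (0.0695). Without ATF6bKO replicate 1 the adjusted p in ATF6bKO was 0.112 for Ptpn1 and 0.102 for Sh2b1 (-0.62). Under 75th percentile scaling the ATF6aKO calls were lost for Ptpn1 (-0.37, adjusted p = 0.128) and Sh2b1 (-0.45, 0.0610), and the ATF6bKO call for Ptpn1 (0.171). The Ptpn1 call was also lost in ATF6aKO with processed signal (-2.22, adjusted p = 0.0645) and in ATF6bKO with kept probes averaged (0.0653).

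Among IGF ligands and carriers, all 12 genes were tested, and 2 rose and 2 fell in each comparison. That is 33.3% called in each, against 41.9% of all probes in ATF6aKO and 36.5% in ATF6bKO. Igfbp6, a binding protein with preference for IGF2, read 7.49 and 7.11 in ATF6aKO, 7.79 and 7.41 in ATF6bKO, against 9.74 and 9.75 in WT. It fell by 2.45 ± 0.20 (5.45-fold lower, limma adjusted p = 0.000540) and by 2.15 ± 0.20 (4.43-fold lower, adjusted p = 0.000823). Igfbp2 fell by 0.91 ± 0.16 (adjusted p = 0.00415) and 0.88 ± 0.16 (adjusted p = 0.00557). Igfbpl1, a relative of the binding proteins, rose by 1.28 ± 0.17 (adjusted p = 0.00153) and 1.37 ± 0.17 (adjusted p = 0.00155). Igfbp1 rose by 0.58 ± 0.16 (adjusted p = 0.0237) and 0.52 ± 0.16 (adjusted p = 0.0395). The Igfbp1 calls were lost without ATF6aKO replicate 1 (0.47, adjusted p = 0.0880) or WT replicate 2 (0.56, 0.0737) in ATF6aKO, and in ATF6bKO without either of its arrays or either WT array (0.48 to 0.57, 0.0774 to 0.174) or with the replicate block (0.0600).

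Among genes that act after the IGF receptor, 26 of 29 were tested. In ATF6aKO 10 rose and 3 fell (50% called, median 0.44), and in ATF6bKO 5 rose and 3 fell (30.8% called, median 0.09). Rps6kb1, the S6 kinase downstream of mTORC1, rose by 1.89 ± 0.18 (3.70-fold, limma adjusted p = 0.000657) and 1.68 ± 0.18 (3.21-fold, adjusted p = 0.00106). Irs4, a relative of Irs1, rose by 1.21 ± 0.20 (adjusted p = 0.00320) and 1.02 ± 0.20 (adjusted p = 0.00710), the latter call lost without ATF6bKO replicate 2 (0.91, adjusted p = 0.0561). Shc1, an adaptor of the Ras branch, rose by 1.07 ± 0.18 (adjusted p = 0.00384) and 0.98 ± 0.18 (adjusted p = 0.00643), the latter call lost without ATF6bKO replicate 1 (0.78, adjusted p = 0.0573). Pik3r2, a regulatory subunit of PI3K, fell by 1.04 ± 0.17 (adjusted p = 0.00311) and 1.13 ± 0.17 (adjusted p = 0.00281). Irs2, the other main substrate of the insulin receptor, fell by 0.58 ± 0.17 (adjusted p = 0.0277) and 0.64 ± 0.17 (adjusted p = 0.0218), a direction opposite to that of Irs1. Its ATF6aKO call was lost when any array but WT replicate 1 was left out (-0.46 to -0.64, adjusted p 0.0535 to 0.127). Its ATF6bKO call was lost without either ATF6bKO array (-0.71 and -0.58, adjusted p = 0.0843 and 0.124), without WT replicate 2 (-0.52, 0.0940) and with processed signal (-0.67, 0.0506). Pik3cb, a catalytic subunit of PI3K, was not well above background on any knockout array. Its measured difference from WT was -0.47 ± 0.16 in ATF6aKO (adjusted p = 0.0438) and -0.79 ± 0.16 in ATF6bKO (adjusted p = 0.00750). With the knockout readings so near background, the size of these differences is uncertain. The ATF6aKO call was lost whichever array was left out (adjusted p 0.0613 to 0.151) and with the replicate block (0.0676), and the ATF6bKO call without either ATF6bKO array (0.0538 and 0.0534). Under 75th percentile scaling both calls were lost (adjusted p = 0.611 and 0.305), and the measured differences shrank to -0.11 and -0.23. With kept probes averaged, Irs4 differed by 0.29 (adjusted p = 0.229) and 0.28 (0.258), and Rps6kb1 by 0.84 (0.0107) and 0.56 (0.0522). Over the 3 lists together, 38.9% and 27.8% were called, against 41.9% and 36.5% of all probes.

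**Figure D4:**
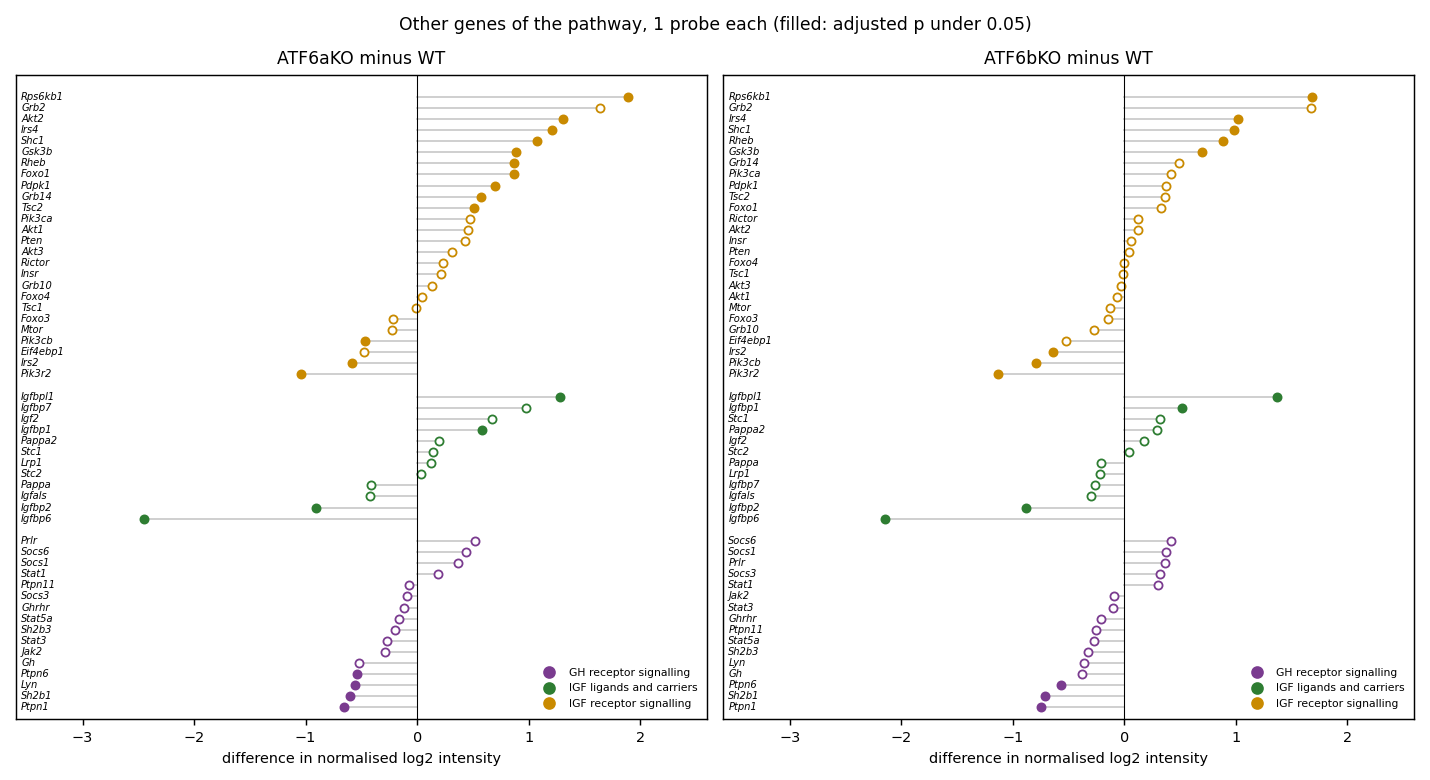
Difference in normalised log2 intensity (horizontal axis) of the 54 other pathway genes tested, 1 probe each, for ATF6aKO and ATF6bKO against WT, coloured by list; filled points passed a limma adjusted p of 0.05. Igfbp6 lies farthest left at -2.45 and -2.15 and Rps6kb1 farthest right at 1.89 and 1.68.

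Some lists of markers of the cell types that a dissected growth plate can hold also differed between genotypes or between single arrays. The 11 cartilage markers, all kept, averaged 11.69 and 12.13 in ATF6aKO, 10.98 and 9.94 in ATF6bKO, against 9.19 and 9.19 in WT. Their sum was 128.5 and 133.4, 120.8 and 109.4, and 101.1 and 101.1. Col2a1, the main collagen of cartilage, read 15.06 and 15.36, 14.51 and 13.25, and 10.88 and 11.15, and Comp 13.59 and 14.02, 12.51 and 11.38, and 12.87 and 13.27. Of the 11 markers, 9 rose and 1 fell in ATF6aKO, and 6 rose and 2 fell in ATF6bKO. That is 90.9% and 72.7% called, against 41.9% and 36.5% of all probes. The list mean was lowest on the WT arrays and had the order ATF6aKO, ATF6bKO, WT that Irs1 and Igf2r also had. Col11a2 ran the other way, with genotype means of 9.47 in ATF6aKO and 8.83 in ATF6bKO against 10.37 in WT, and so did Comp in ATF6bKO, at 11.94 against 13.07 in WT. Sox9, a defining factor of chondrocytes, was not well above background on ATF6bKO replicate 2 or on either WT array. On each of those arrays 10 of the 11 markers were well above background, at a lower list mean than in ATF6aKO. How far they bear out the tissue label there was not tested. In these bulk samples, fewer cells of a type and less RNA per cell cannot be told apart.

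Other lists stood out on the WT arrays. The 7 kept osteoblast and osteocyte markers of 10 averaged 11.02 on WT replicate 1 and 7.57 to 8.09 on the other 5 arrays (sums 77.1 and 53.0 to 56.6), with Bglap, Dmp1 and Phex not kept. Igfbp4 was also highest on WT replicate 1. The 8 osteoclast markers averaged 9.98 on that array and 7.95 to 8.14 on the others (sums 79.9 and 63.6 to 65.1). The 9 endothelial markers averaged 8.66 and 8.28 in WT and 7.5 to 7.65 on the knockout arrays (sums 78.0 and 74.5 against 67.5 to 68.9), and the 6 kept erythroid markers 9.41 and 8.41 against 7.10 to 7.29 (sums 56.4 and 50.5 against 42.6 to 43.7). The 8 kept macrophage markers averaged 8.74 and 8.80 in WT and 8.45 to 8.57 on the knockout arrays (sums 70.0 and 70.4 against 67.6 to 68.6). Of these 8, 6 fell in ATF6aKO and 5 in ATF6bKO, with a median difference of -0.76 in both, while Lyz2 rose by 2.35 and 1.84 (limma adjusted p = 0.00146 and 0.00400). Of the 9 endothelial markers, 5 and 4 fell, with a median of -0.66 in both. Of the 6 kept erythroid markers, 3 fell and 1 rose in each comparison. Over all probes, 21.8% fell in ATF6aKO and 19.9% in ATF6bKO. The endothelial and erythroid lists and most macrophage markers had the direction of Igf1, Igfbp4, Igfbp5 and Igfbp6. Perichondrium and tendon markers averaged 7.98 to 8.74 over the 6 arrays, skeletal muscle markers 7.60 to 7.99, adipocyte markers 7.24 to 7.80 and neutrophil markers 7.33 to 7.48. The part of these cell type differences in the changes of the axis genes was not tested.

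**Figure D5:**
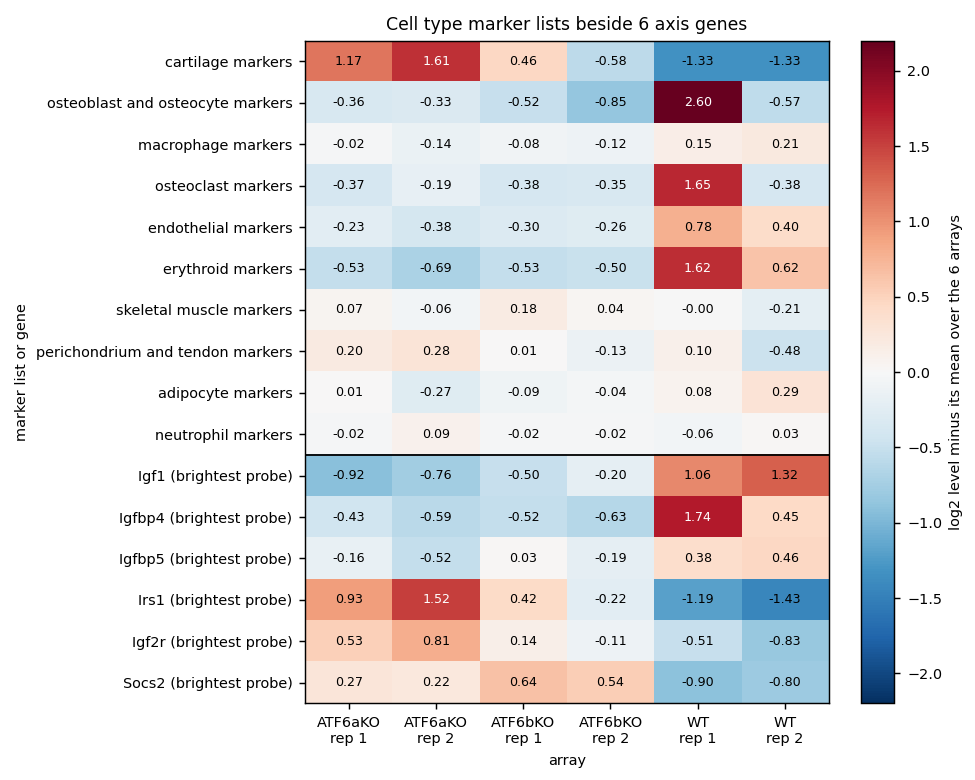
Mean log2 level of each cell type marker list (upper rows) and log2 level of 6 axis genes by their probe of highest signal (lower rows) on each array, each as the deviation from its own mean over the 6 arrays; colour and printed number give the same value. Cartilage markers, Irs1 and Igf2r run from high in ATF6aKO to low in WT, and the means of the osteoblast and osteoclast lists stand high on WT replicate 1 alone.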

How the data were processed

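The deposited scanner output, which the submitters' processing notes ascribe to Agilent Feature Extraction 10.7.1.1, gave the median intensity of each spot and of its background. The red channel was read on the knockout arrays, whose 2-channel extraction was a Cy5 protocol per the file headers. The WT arrays have 1 channel, which the files name green although the labels give Cy5. In the knockout green channel, at most 1 of 40 axis spots was well above background.

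Background was corrected with normexp (limma 3.58.1, R 4.3.3, offset 50). On the log2 scale, control and outlier spots were dropped (288 probes left out), each probe's spots were averaged, and quantile normalisation followed. Probes were named by RefSeq accession through a table of GRCm38.p6, used for names only (26582 probes of 55681, 20145 symbols). Kept probes had to stand well above background on both arrays of 1 or more genotypes (24907 probes). All 6 arrays were fitted together per probe with limma's lmFit and eBayes, with Benjamini-Hochberg adjustment over all kept named probes and a threshold of 0.05. The fit was also run on simulated data without any slide or channel effect, which cannot test the confounding of genotype with slide and channel. Only 2 arrays per genotype limit the precision.

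The authors' deposited log2 table of the same arrays followed the green channel (r of at least 0.9988 for differences between arrays), not the labelled red channel of the knockout arrays (r of 0.0558 to 0.0709 within the slide). The array medians of that table lay at 0.20 and 0.10 (ATF6aKO), 0 and 0.227 (ATF6bKO), and -0.50 on each WT array; its scale is log2, and how it was centred is unknown. It served only as an alternative.

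The members and lists were chosen with earlier results of these data known. All axis genes are named with every probe. Of each pathway list, the 2 genes of smallest p in each direction that passed are named, by the kept probe of highest mean signal; of each marker list, counts, array means and at most 2 of its brightest genes. Sox9 and the osteoblast and osteocyte markers, kept or not, are named after their values were seen. Promoter windows came from a RefSeq table on GRCm38.p6, searched with Python 3.11.15. Alternatives changed the signal, the scaling, the filter, the probe rule, the variance model, the replicate block and the arrays included.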

Additional observations from a re-analysis of the deposited data

How the results depend on the processing

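Of the values of single probes under other settings, 506 kept their direction and side of the threshold, 30 no longer passed, 9 passed only there and 30 turned sign; with an array left out the counts were 323, 51, 0 and 4. The count of probes that passed was 22931 in ATF6aKO and 20450 in ATF6bKO against WT with all probes of the array in place of named ones, where 52531 probes were tested. Axis rows that passed numbered 6 with the brightest probe per gene and 5 with the mean of probes in ATF6aKO, and 4 with the mean in ATF6bKO, where 9 rows were tested. Leaving out 1 array gave 5932 to 10326 probes and 6 to 10 axis probes in ATF6aKO against WT, lowest without ATF6aKO replicate 2. It gave 3793 to 8854 and 3 to 8 in ATF6bKO, lowest without ATF6bKO replicate 1 and next (4698) without replicate 2, and 0 to 29 and 0 in ATF6aKO against ATF6bKO, with 23 without ATF6aKO replicate 2 and 29 without either WT array. The lone array was assumed to vary like the other genotypes.

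Replicate numbers did not pair the arrays (correlation of deviations -0.15, -0.07 and 0.20). With the replicate block, 9701, 8319 and 0 probes and 10, 7 and 0 axis probes passed. Among the named results the block changed the calls of Ghr A_55_P2059412 (0.0682) and Igfbp1 (0.0600) in ATF6bKO and of Pik3cb (0.0676) in ATF6aKO, and no other. Crossing the numbers of the 2 knockouts, chosen after seeing the data, gave 0 and 0. The Ghr call was also lost with processed signal (adjusted p = 0.121) and with trend and robust variance (0.0549).

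Under 75th percentile scaling the sign turned for Atf6 (0.07) and Igf1 A_55_P2085984 (0.09) in ATF6aKO and for Igfbp3 (0.10), Stat5b A_55_P2031043 (0.18) and Igf1 A_55_P2085984 (0.19) in ATF6bKO; the mean of probes turned Stat5b in ATF6bKO (0.06). Leaving out 1 array turned Igf1 A_55_P2031631 (-0.06 to 0.32) and Stat5b A_55_P2031043 (-0.12 to 0.37) in ATF6aKO and the latter in ATF6bKO (-0.43 to 0.07). None of these had passed. With processed signal the Igfbp1 call in ATF6aKO was lost (0.57, adjusted p = 0.0674), and differences that kept their calls were larger, as for Irs1 A_52_P175242 (3.95 and 2.43), Irs1 A_52_P171212 (1.82 in ATF6aKO), Igfbp4 A_52_P257502 (-2.27 in ATF6bKO), Rps6kb1 (2.85 and 2.49) and Igfbpl1 (2.29 and 2.30).

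In the authors' deposited table, which moved the median over all probes to 1.05 in both comparisons with WT (75.3% and 74.7% of calls higher), signs turned in ATF6aKO for Igfbp3 (2.0), Igfbp5 (0.25), Igf1 A_55_P2085984 (1.74), Ptpn1 (2.8), Sh2b1 (2.40), Igfbp2 (0.35), Igfbp1 (-0.15), Pik3r2 (2.18), Pik3cb (3.5) and Atf6 (0.95). They turned in ATF6bKO for Igfbp3 (1.45), Igfbp5 (0.20), Socs2 A_55_P1992834 (0.20) and A_55_P1992838 (-0.40), Stat5b A_55_P2031043 (1.25), Igf1 A_55_P2085984 (1.92), Ptpn1 (1.75), Sh2b1 (2.8), Igfbp2 (1.55), Igfbp1 (-0.60), Pik3r2 (1.31) and Pik3cb (2.85), and between the knockouts for Irs1 A_52_P171212 (-0.10) and Socs2 A_55_P1992838 (1.20). With the sign kept, calls were lost in both comparisons for Igfbp4 (-1.3 in each), Socs2 A_51_P107362 (0.8 and 0.75) and Irs2 (-0.72 and -0.09). In ATF6aKO they were also lost for Irs1 A_52_P171212 (2.05), Socs2 A_55_P1992834 (-0.75) and A_55_P1992838 (0.8). Ghr A_51_P499854 and Igf1 A_55_P2031631 passed only there in both comparisons. So did Ghr A_55_P2059412 and Stat5b A_55_P2031043 in ATF6aKO, and Stat5b A_55_P2031045 and Atf6b in ATF6bKO. The cause was not tested. On the knockout arrays that table followed the green channel, in which at most 1 of 40 axis spots was well above background. Igf1 A_55_P2031636, Irs1 A_52_P175242 and Igf2r kept their calls there, which is thus no support for them.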
